A study of Saccharomyces cerevisiae with 6 samples.

Results

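The proteasome is the protease that degrades ubiquitin-tagged proteins in eukaryotic cells. The 33 genes described here encode the 14 subunits of its 20S core, 18 subunits of its 19S regulatory particle, and Rpn4, the transcription factor that activates proteasome genes in yeast. They were listed by the place of their proteins in the proteasome, and are 33 of the 5449 *Saccharomyces cerevisiae* genes that were tested. Each was read by 1 probe set of an Affymetrix Yeast Genome 2.0 Array.

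RNA came from yeast cells that overexpressed Med3 fused to GST (glutathione S-transferase) or GST alone for 48 h, with 3 biological replicates (A, B and C) and so 3 arrays per group. Med3 is a subunit of the tail of Mediator, a coregulator of RNA polymerase II. Both groups carried a plasmid whose insert was driven by the galactose-inducible *GAL1/10* promoter, and both grew in galactose medium without uracil. The parent listed for the strains of the study was the haploid BY4741, of mating type MATa, with the alleles ura3Δ0, met15Δ0, leu2Δ0 and his3Δ1. In that strain list the strains with either plasmid also carry a tagged Mediator subunit at its own locus. The tagged subunit is Med18-3FLAG (KanMX marker) or Med3-GFP (HisMX6 marker). The titles of the GST arrays hold the number of BY4741, and those of the Med3-GST arrays the end of the systematic name of MED3. The titles name no tag, and which strain was used for the arrays is not stated in the sources used here. The comparison asked which transcripts changed when Med3 was overproduced, in a study of amyloid formation by Mediator subunits.

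In the 20S core, 2 rings of alpha subunits gate the barrel and 2 rings of beta subunits carry the protease sites. In the 19S particle, the base holds a ring of ATPases (Rpt subunits) that unfolds substrates, and the lid removes the ubiquitin chains. Rpn4 binds a shared element in the promoters of the subunit genes, and is itself a short-lived substrate of the proteasome, so that proteasome gene expression in yeast is under feedback control.

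The deposited values are log10 signals, given here as log2. Differences are Med3-GST minus GST on the log2 scale, and were tested with limma over 5498 probe sets at a Benjamini-Hochberg adjusted p under 0.05. As deposited, the median log2 signal of the array was 9.99 to 10.08 in the GST group and 9.87 to 9.99 in the Med3-GST group, and the median difference over all probe sets was -0.085. The counts of calls, and the differences of named genes whose call depends on it, are therefore also given after the median of each array was subtracted (centring), which moved the median difference by 0.095 to 0.01. With the deposited values limma gave all probe sets the same standard error of 0.05, whereas after centring the standard errors of the members lay between 0.021 and 0.033. MED3, listed as PGD1, rose 13.0-fold, in the direction of the labels. Of 7 genes specific to MATa cells, 5 rose as deposited, where 27.1% of all probe sets were called higher, and 7 after centring, where 43.6% were. All 7 had signals above 7.49, the 95th percentile of 1746 *Schizosaccharomyces pombe* probe sets on the same arrays, while the alpha-factor genes MF(ALPHA)1 and MF(ALPHA)2 were below it on all 6 arrays. The alpha-specific genes STE3 and SAG1 were above it, with a lowest signal of 7.94 and 8.70. Of these 4 alpha-specific genes 3 also rose under both scalings, and STE3 fell.

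With Med3-GST most of the proteasome subunit genes had less transcript, by small amounts, while the ubiquitin receptor gene RPN10, the catalytic subunit gene PUP1 and RPN4 were higher. Of the 33 genes, 23 fell, 6 rose and 4 did not pass the test. Over all probe sets 47.8% were called lower and 27.1% higher (2629 and 1488). After centring 21 of the 33 fell and 8 rose, where 41.7% of all probe sets were called lower and 43.6% higher (2293 and 2395). The median log2 difference of the 33 genes was -0.22 as deposited, beside -0.085 for all probe sets, and -0.13 after centring, beside 0.01. The middle part of the members, from the first to the last quartile, ran from -0.28 to -0.085, a narrower band than the -0.30 to 0.13 of all probe sets. No member reached a 2-fold difference, which 1.84% of all probe sets did. All Med3-GST arrays lay below all GST arrays for 22 members and above them for 5, beside 48.4% and 26.6% of all probe sets. After centring these counts were 21 below and 8 above, beside 42.2% and 43.2%. All 33 genes were bright, with log2 signals from 10.44 to 12.81 on the 6 arrays. In total RNA, fewer transcripts per cell and a smaller share of all RNA cannot be told apart.

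**Figure D1:**
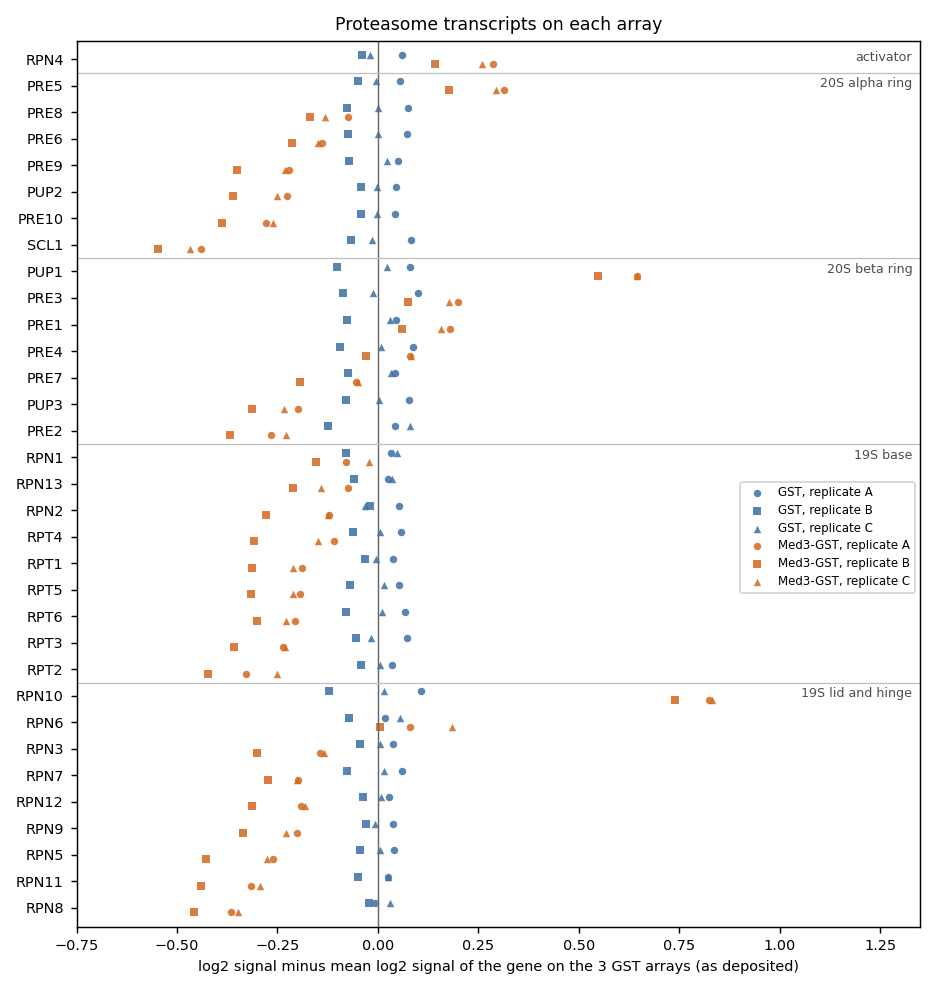
Log2 signal of each member on each array, minus the mean of that gene on the 3 GST arrays (x axis), with GST arrays in blue and Med3-GST arrays in orange, and a marker shape for each replicate. Most Med3-GST points lie left of the GST points, those of RPN10, PUP1, PRE5 and RPN4 lie to the right of them, and replicate B is the lowest of its group for nearly every gene.

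RPN4 (YDL020C), the activator, had log2 signals of 11.23, 11.13 and 11.15 on GST arrays A, B and C and of 11.45, 11.31 and 11.42 on the Med3-GST arrays. The groups did not overlap, and the rise was 0.23 ± 0.05 (SE common to all probe sets, n = 3 arrays per group), a 1.17-fold change. After centring RPN4 rose by 0.32 ± 0.023 (SE), with an adjusted p = 3.00e-08 from limma. Of the 32 subunit genes 23 fell (21 after centring), beside 47.8% of all probe sets called lower (41.7% after centring).

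Of the 14 genes of the 20S core, 8 fell, 4 rose and 2 did not pass the test, with a median difference of -0.15, where 47.8% of all probe sets were called lower and 27.1% higher. After centring 7 fell and 5 rose, where 41.7% of all probe sets were called lower and 43.6% higher. The counts are not far from these shares and are no result about the core. The 3 catalytic subunits, which differ in the residues after which they cut, did not all move one way, since PUP1 and PRE3 rose and PRE2 fell. PUP1, the trypsin-like subunit, had log2 signals of 11.03, 10.85 and 10.97 with GST and of 11.60, 11.50 and 11.59 with Med3-GST. Its groups did not overlap, and it rose by 0.61, or 1.53-fold, the second largest rise among the members. PRE3, the caspase-like subunit, had 12.12, 11.93 and 12.01 with GST and 12.22, 12.09 and 12.19 with Med3-GST. The ranges of PRE3 overlapped as deposited, its rise was 0.15, and after centring it rose by 0.24 with no overlap. PRE2, the chymotrypsin-like subunit, had 12.77, 12.61 and 12.81 with GST and 12.46, 12.36 and 12.50 with Med3-GST. All Med3-GST values of PRE2 lay below the GST values, and the decrease was 0.29, so that the catalytic genes of a single ring rose and fell. Among the structural beta subunits, PUP3 fell by 0.25 and PRE1 rose by 0.13. PRE7 and PRE4, with -0.10 and 0.04, did not pass the test, and PRE4 rose by 0.14 after centring. PRE7 passed as lower, with -0.14 and -0.12, when GST replicate B or Med3-GST replicate C was left out. The calls of PRE3 and PRE1 depended on single arrays. Without GST replicate B, or without Med3-GST replicate A, neither passed the test and 2 of the 14 core genes rose, and without Med3-GST replicate C the call of PRE1 was lost.

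The alpha ring was lower in 6 of its 7 genes (5 after centring), with a median of -0.27. Of all probe sets 47.8% were called lower (41.7% after centring). SCL1 had the largest decrease of all 33 members. Its log2 signals were 12.49, 12.34 and 12.40 with GST and 11.97, 11.86 and 11.94 with Med3-GST, with a wide gap between the groups. SCL1 fell by 0.48 ± 0.05 (SE common to all probe sets, n = 3 arrays per group), which is 1.40-fold. After centring it fell by 0.39 ± 0.024 (SE, adjusted p = 7.57e-09 from limma). PRE10 fell by 0.31, PUP2 by 0.28, PRE9, the alpha subunit that yeast can live without, by 0.27 and PRE6 by 0.17. PRE8 fell by 0.12, but with -0.03 it did not pass the test after centring, nor as deposited without GST replicate A or C. PRE5 was the exception of the ring. It had 11.36, 11.25 and 11.30 with GST and 11.61, 11.48 and 11.60 with Med3-GST, so that every Med3-GST array was above every GST array. PRE5 rose by 0.26, and by 0.36 after centring.

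In the 19S base 8 of 9 genes fell and none rose (7 fell and none rose after centring). Over all probe sets 47.8% were called lower and 27.1% higher, and after centring 41.7% and 43.6%. All 6 ATPase genes were lower with no overlap between the groups, where 48.4% of all probe sets lay below without overlap. They formed a narrow band from -0.33 to -0.19, and all 6 also fell after centring (median of -0.15). RPT2, the largest decrease among them, had log2 signals of 11.95, 11.87 and 11.92 with GST and of 11.59, 11.49 and 11.67 with Med3-GST. The lowest GST value of RPT2 was above the highest Med3-GST value. RPT3 fell by 0.28, RPT6 by 0.25, RPT5 and RPT1 by 0.24 each and RPT4 by 0.19. Of the base subunits that are not ATPases, RPN2, a scaffold, fell by 0.18. RPN13, a receptor for ubiquitin, fell by 0.14 as deposited but had -0.05 after centring and did not pass the test then, nor as deposited without GST replicate C. RPN1, the scaffold on which shuttle proteins dock, did not pass the test either way. Its sign depended on the scaling, with -0.085 for deposited values and 0.01 for centred ones. Of the arrays left out in turn, only GST replicate B made it pass as lower (-0.12).

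In the lid, and at its hinge with the base, 7 of 9 genes fell and RPN10 rose (7 fell and 2 rose after centring). Beside these, 47.8% of all probe sets were called lower and 27.1% higher (41.7% and 43.6% after centring). RPN8 and RPN11 encode the dimer that carries the deubiquitinating activity of the lid, and they were the lowest lid genes. RPN8 had log2 signals of 12.42, 12.40 and 12.45 with GST and of 12.06, 11.96 and 12.08 with Med3-GST. RPN11 had 11.97, 11.90 and 11.97 with GST and 11.63, 11.51 and 11.65 with Med3-GST. In both genes the gap between the groups was wider than the range within either group, and the decreases were 0.39 and 0.35 (1.31-fold and 1.27-fold). Of the lid scaffold genes, RPN5 fell by 0.32, RPN9 by 0.26, RPN12 by 0.23, RPN7 by 0.22 and RPN3 by 0.19. RPN6 differed from these, with a difference of 0.09 that did not pass the test as deposited and a rise of 0.19 after centring. It also passed as higher, with 0.13, when Med3-GST replicate B was left out, which makes 2 of the 18 genes of the 19S particle higher.

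RPN10, the ubiquitin receptor at the hinge of base and lid, had the largest rise of the 33 genes. Its log2 signals were 10.67, 10.44 and 10.57 with GST and 11.39, 11.30 and 11.39 with Med3-GST. The groups were far apart, with a rise of 0.80 ± 0.05 (SE common to all probe sets, n = 3 arrays per group), or 1.74-fold. Its own SD was 0.115 on the GST arrays and 0.051 on the Med3-GST arrays. The rise ranked 90 among the 5498 probe sets. After centring RPN10 rose by 0.89 ± 0.031 (SE), with an adjusted p = 2.90e-11 from limma, and over all alternatives its difference lay between 0.74 and 0.93.

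**Figure D2:**
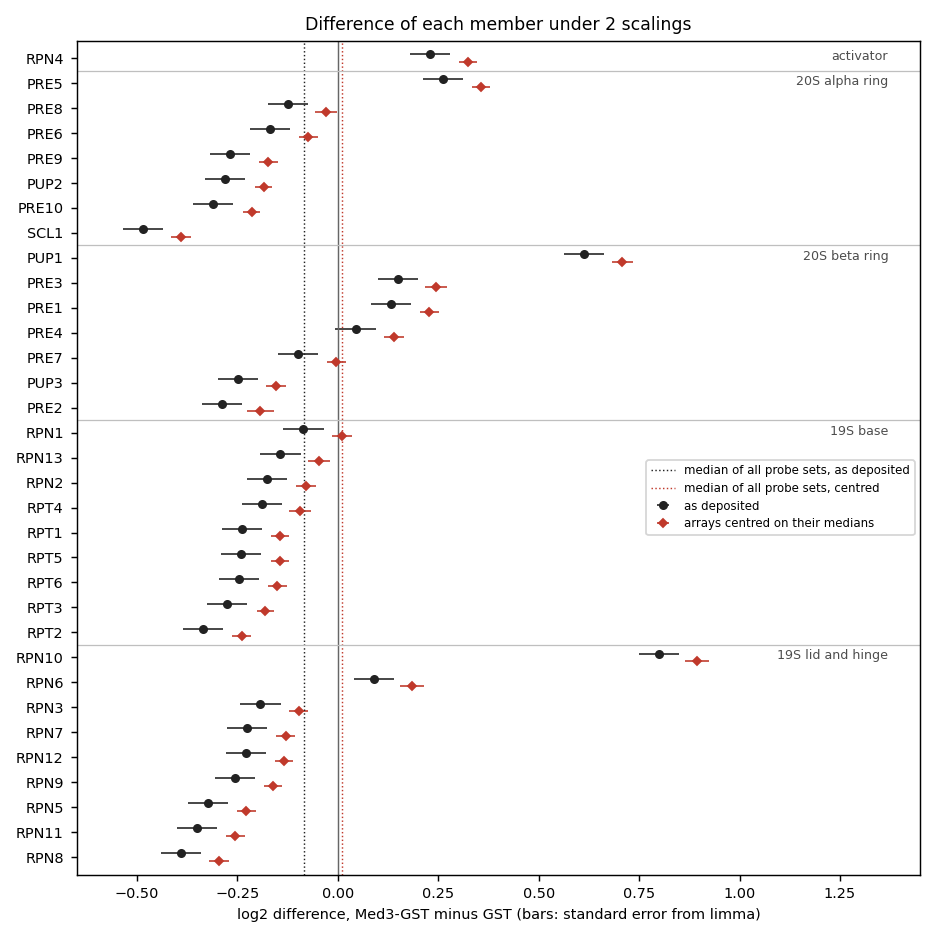
Log2 difference of each member (x axis), for deposited values (black circles) and centred arrays (red diamonds), with standard errors from limma and, as dotted lines, the median of all probe sets under each scaling. The 6 ATPase genes of the base lie in a tight group under both scalings, whereas the beta ring spreads from -0.29 for PRE2 to 0.61 for PUP1 as deposited.

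Because the scaling of the arrays moves all members alike, each gene was also expressed relative to the median of the 32 subunit genes on the same array, a value that no offset of an array can change. On that scale RPN10 rose by 0.94, PUP1 by 0.76, PRE5 by 0.41 and RPN4 by 0.37. RPN10 stood at -1.55, -1.67 and -1.64 relative to the subunit median on the GST arrays and at -0.68, -0.67 and -0.68 on the Med3-GST arrays. Its replicates were close with Med3-GST and less so with GST. For PUP1 these values were -1.18, -1.26 and -1.24 with GST and -0.47, -0.47 and -0.48 with Med3-GST. At the other end SCL1 fell by 0.34, RPN8 by 0.25 and RPN11 by 0.20, so that the subunit genes did not change in equal measure. The members with the highest differences were also the dimmest ones. RPN10, PUP1, RPN4 and PRE5 had the lowest mean signals of the 33 probe sets, and the mean signal over the 6 arrays correlated with the difference at Pearson's r = -0.67 and Spearman's rho = -0.41 across the 33 members, but at -0.047 and -0.058 across all 5498 probe sets. The points share the same 6 arrays and are not independent, signals of different probe sets do not compare levels of different transcripts, and the part of probe brightness in these differences was not tested. The spread of the mean signals of the 33 genes was narrower with Med3-GST (SD of 0.32 across genes) than with GST (SD of 0.50).

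**Figure D3:**
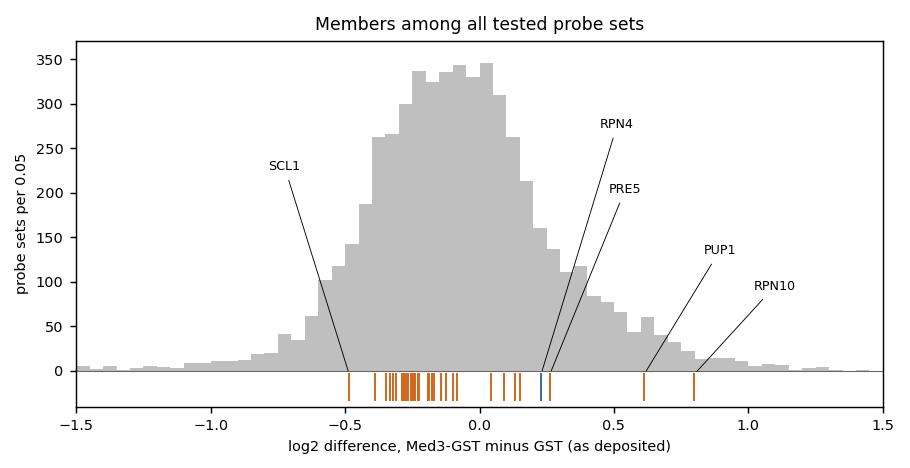
Distribution of the log2 differences of all 5498 probe sets (grey bars, number of probe sets per bin of 0.05; differences beyond 1.5 in size are not drawn), with the subunit genes as orange ticks and RPN4 as a blue tick under it. Most ticks gather left of zero around -0.23, and RPN10 and PUP1 stand apart on the right.

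The wider ubiquitin-proteasome pathway was examined through 55 further genes in 5 lists. Of these, 32 fell, 9 rose and 14 did not pass the test, with a median difference of -0.18, beside 47.8% of all probe sets called lower and 27.1% higher. After centring 31 fell and 18 rose, with a median of -0.09, beside 41.7% lower and 43.6% higher. None reached a 2-fold difference as deposited.

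The list of assembly factors, which help to build the proteasome without staying in it, had 10 measured genes, of which 5 fell and 3 rose. TMC1, 1 of the genes that fell (by 0.37), was counted in this list, but a role in assembly was not checked for it. Over all probe sets 47.8% were called lower and 27.1% higher. UMP1, which guides maturation of the 20S core, had log2 signals of 11.10, 10.95 and 11.02 with GST and 11.67, 11.59 and 11.72 with Med3-GST. Its groups did not overlap and it rose by 0.64, close to PUP1. The base chaperone genes RPN14 fell by 0.57, HSM3, another, fell by 0.44, and PBA1, a chaperone of the alpha ring, fell by 0.42. After centring 4 rose and 5 fell, beside 43.6% of all probe sets called higher and 41.7% lower. The counts are near these shares, so that they are no result about this list.

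Of 10 genes for proteins that bind the proteasome or its core, 8 fell and 2 rose under both scalings. Over all probe sets 47.8% were called lower and 27.1% higher (41.7% and 43.6% after centring). The smaller rise, of HUL5, a ligase gene, was 0.13, and without Med3-GST replicate A or C only 1 gene of the list rose. FUB1, which binds the core and has a mammalian relative known as PI31, fell by 0.56, UBP6, the deubiquitinase on the base, by 0.42 and CUZ1, a zinc finger protein, by 0.40. SEM1, a small subunit of the lid that was not among the 33 genes, fell by 0.30. CIC1 had 10.70, 10.60 and 10.64 with GST and 11.55, 11.41 and 11.55 with Med3-GST, and rose by 0.86. Its protein binds proteasomes but also belongs to precursors of the large ribosomal subunit, and the study lists it as upregulated on these same arrays, so that its direction is not independent evidence.

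Of 15 genes for ubiquitin, its activating enzyme, shuttle proteins, deubiquitinases and the Cdc48 machinery, 7 fell and none rose, with 8 that missed the threshold, and after centring 6 fell and 4 rose. The share that fell was near that of all probe sets (47.8% and, after centring, 41.7%), so that the count that fell is no result about this list. Called higher were 27.1% of all probe sets as deposited and 43.6% after centring. DDI1, a shuttle protein, fell by 0.52, DOA4, which recycles ubiquitin, by 0.50, UBI4, the polyubiquitin gene, by 0.40 and UBA1, the activating enzyme, by 0.32. The ubiquitin fusion genes RPL40A, RPL40B and RPS31 had differences between -0.081 and -0.044 and did not pass the test. They share ubiquitin sequence with UBI4, and RPL40A and RPL40B are near-identical copies, so that their separate signals are uncertain. Of 13 genes for conjugating enzymes and ligases, 9 fell and 2 rose (9 and 4 after centring). Beside them, 47.8% of all probe sets were called lower and 27.1% higher (41.7% and 43.6% after centring). UFD2, which extends ubiquitin chains, fell by 0.50, UBC6, an enzyme of degradation at the endoplasmic reticulum, by 0.32 and the ligase gene TOM1 by 0.28. SAN1, a ligase for misfolded nuclear proteins, was dim, with 8.47 to 8.60 under GST and 8.93 to 9.05 under Med3-GST, and rose by 0.45.

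The 7 regulators of RPN4 were described one by one. Ubr2, Mub1 and Rad6 act together in tagging the Rpn4 protein for degradation. MUB1 had 10.33, 10.24 and 10.23 with GST and 9.79, 9.68 and 9.83 with Med3-GST, and fell by 0.50, with a clear gap between the groups. UBR2 fell by 0.25, from 9.13, 9.07 and 9.07 to 8.82, 8.78 and 8.92. RAD6, with 0.07, did not pass the test as deposited and rose by 0.16 after centring. It passed as higher, with 0.12, when Med3-GST replicate B was left out. Of the factors that activate transcription of RPN4, YAP1, of the oxidative stress response, fell by 0.38. HSF1, the heat shock factor, rose by 0.21 and PDR1, the drug resistance factor, by 0.16. With the spread estimated from each probe set alone, PDR1 did not pass the test. PDR3, a relative of PDR1, had 0.03 as deposited and did not pass the test, and it rose by 0.13 after centring. Thus the activators of RPN4 moved in both directions, and of the degradation factors MUB1 and UBR2 fell.

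**Figure D4:**
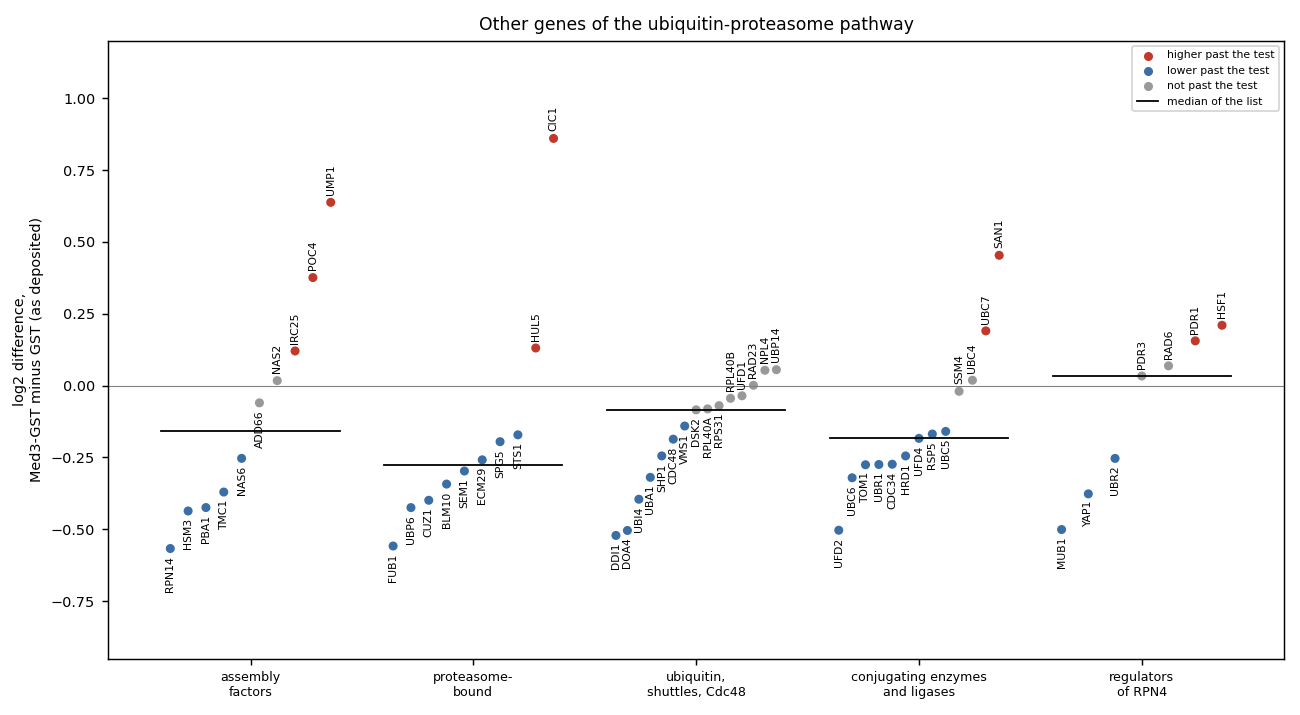
Log2 difference as deposited (y axis) of each gene in the 5 lists of other pathway genes (x axis), coloured red where it was higher past the test, blue where lower and grey where it did not pass, with a black line at the median of each list. UMP1, CIC1 and SAN1 stand at the top of their lists with 0.64, 0.86 and 0.45, and all 8 genes that fell among the proteasome-bound proteins lie between -0.56 and -0.17.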

How the data were processed

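Transcripts were measured in 6 samples of yeast total RNA, 3 with GST and 3 with Med3-GST overexpressed, and groups were taken from the overexpression label. The values deposited by the authors are log10 signals of probe sets, and their methods name a normalization within each experiment. The base follows from the values themselves. Taken as base 10, 100% of cells return to signals of no more than 2 decimals (within 0.02 of a hundredth), but 4.12% as base 2. Background correction and probe summary are stated in none of the sources used here. Values were converted to log2 and not scaled further. The number of arrays limits the precision.

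Of 10928 probe sets, 5498 were matched to *S. cerevisiae* genes through the platform annotation and RefSeq (assembly R64, 12 symbols updated) and tested, and 5430 were left out. The test was limma's (version 3.58.1, in R 4.3.3; lmFit, eBayes), two-sided and adjusted over all 5498 probe sets. limma estimated an infinite prior weight on the deposited values and 7.97 degrees of freedom after centring. Exact permutation was not used, since its smallest p here is 0.1. A gene with several probe sets was read from the brightest.

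Members and lists were chosen with earlier results of these data known. The genes given with values on every array are RPN4, the 3 catalytic subunits and the 4 members with the highest and the 4 with the lowest differences. In each other list up to 4 called genes with the largest differences are named, and all regulators of RPN4. The other genes named and the values on single arrays of list genes were chosen after their values were seen. ADC17, without an annotated probe set, was not analysed here. The alternatives were scaling (centring, quantile normalization, subtraction of the median *S. pombe* signal with a floor of 16 units and centring), omission of dim probe sets, other estimates of spread, the mean over probe sets, a replicate block and omission of each array. Promoter sequences were not analysed here.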

Additional observations from a re-analysis of the deposited data

How the results depend on the processing

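Some of the 21 alternatives left the difference of each member as it was, and could change only its call. These were omission of dim probe sets, other estimates of spread, the mean over probe sets and the replicate block. Of the 33 members, 22 kept their direction and their side of the threshold under all 21 alternatives, among them RPN10, PUP1, PRE5, RPN4, SCL1, RPN8 and RPN11, and 30 never changed sign. The exceptions lay near zero. RPN1 had 0.0099 after centring (also with the replicate block), 0.015 after background subtraction, and -0.12 to 0.034 when 1 array was left out. PRE7 had 0.0012 after background subtraction and -0.14 to 0.013 with 1 array left out, and PRE4 had -0.0026 to 0.16. PRE6, RPT4 and RPN2 kept their sign, but each lost its call under 1 of the 21 alternatives. For PRE6 this was the omission of Med3-GST replicate C from the centred arrays (-0.059). The median of the 33 members was -0.13 after centring, with or without the replicate block, -0.15 after quantile normalization, -0.13 after background subtraction, and -0.25 to -0.12 with 1 array left out, values as deposited and centred included. Of the 19S genes, 2 rose after centring, quantile normalization, background subtraction and under the replicate block, and 1 to 2 with 1 array left out. Of the 20S genes, 2 rose with an unmoderated spread and 2 to 5 with 1 array left out. Among the other pathway genes 18 rose after centring, after background subtraction and with the replicate block after centring, 19 rose after quantile normalization and 7 to 19 with 1 array left out. Over all probe sets 2395 were higher after centring, 2406 after background subtraction, 2412 with the replicate block after centring and 1305 to 2392 with 1 array left out. Array B had the lowest median of both groups. Beyond such array-wide shifts, which a correlation across probe sets does not see, the deviations of same-lettered arrays correlated at 0.044, 0.029 and 0.062 for A, B and C. The labels do not say that a letter marks a shared batch, and the letters were not taken as pairs. With the replicate block on deposited values 7 members rose and 25 fell. Over all probe sets more were then also called, both higher and lower, than the 1488 and 2629 without the block. The added calls are therefore no result about the members. The planned search for the Rpn4 binding site was not run.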

Other observations

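In the gene order of RefSeq, 21 of the 33 members share their upstream region with a neighbouring gene read in the opposite direction, and 19 of these neighbours were measured. Of those 19 pairs, 9 moved in the same direction past the test and 3 in opposite directions as deposited, and 7 and 5 after centring. Other neighbouring pairs were not counted, and since 47.8% of all probe sets were called lower as deposited (41.7% after centring), the counts are given as a description only. PUP1 rose by 0.61 while PET123, a gene of the mitochondrial ribosome on its other side, fell by 0.22, and PRE5 rose by 0.26 while the lipase gene TGL3 fell by 0.23. RPT4 fell by 0.19 while GCD1, a subunit of a translation initiation factor, rose by 0.56. RPN10 and its neighbour NBL1 both rose, by 0.80 and 0.29. None of the 33 genes shared such a region with another member.

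The array also holds probe sets for *S. pombe*, which was not in the cultures. Of 22 of them that carry names of proteasome subunits in that annotation, 20 stayed between 5.78 and 6.80 (log2 signal) on all 6 arrays. The rpt1 probe set of *S. pombe* was the exception above the 95th percentile of that species on every array, with 9.18 to 9.26, and that of rpt6 had 7.47 to 7.63. Neither followed the *S. cerevisiae* genes, with differences of -0.04 and -0.06 where RPT1 and RPT6 of *S. cerevisiae* fell by 0.24 and 0.25. The source of these signals was not tested.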
